A study of Mus musculus with 9 samples.

Results

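The genes described here are 10 genes of hepatic insulin signalling and of the insulin-like growth factor (IGF) binding proteins, namely Insr, Irs1, Irs2, Pik3r1, Akt2, Foxo1, Foxo3, Igfbp1, Igfbp2 and Igfbp4. They were taken by symbol from the deposited count table, where each symbol matched 1 row, so that 10 of the table's 18954 genes are described, and all 10 passed the filter on low counts. RNA was read from 9 mouse livers labelled day 42. The 4 control livers came from GSDMD-NTki/wt mice, which carry 1 knock-in allele of GSDMD-NT, the pore-forming N-terminal part of gasdermin D. The 5 Alb-cre livers came from GSDMD-NTki/wt & Alb-creki/wt mice, which carry the same allele and 1 allele of Alb-cre, a Cre recombinase driven by the albumin promoter of hepatocytes. The series describes doxycycline-induced cell death as a model of liver fibrosis, and both groups carry the knock-in allele. No group here carried Alb-cre without GSDMD-NT, so effects of GSDMD-NT and of Cre or its allele cannot be told apart. No doxycycline dose or route and no obeticholic acid, which the series names, is in the labels of these livers. The labels give no age, sex, litter, feeding state or collection time, and do not say that each liver came from its own animal, so the spread behind each p-value is one between samples and may be partly technical.

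Insulin acts on the liver through its receptor, a tyrosine kinase that phosphorylates insulin receptor substrates (IRS proteins). These recruit phosphoinositide 3-kinase (PI3K), whose lipid product brings the kinase AKT to the membrane. AKT then phosphorylates FOXO transcription factors and keeps them out of the nucleus, which turns down gluconeogenic genes and other FOXO targets such as Igfbp1 and Irs2. IGF binding proteins carry IGFs in blood and tissue and limit or prolong their access to the IGF receptor. The liver is a main source of several of them.

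Total counts were 13361093 to 16823506 per liver, with 17415 to 17775 genes detected. Of 9 hepatocyte marker genes, edgeR called 3 lower (Ttr, Ass1 and Asgr1) and 0 higher in Alb-cre livers, and DESeq2 called 4 lower and 1 higher. The markers did not move one way, since Hnf4a (0.39 ± 0.16, adjusted p = 0.0985 by edgeR), Cps1 (0.43 ± 0.31, adjusted p = 0.338) and Apob (0.25 ± 0.21, adjusted p = 0.415) had positive log2 fold changes without passing the test. Their summed level was 74795 to 92041 CPM (counts scaled to a common library size) in controls and 56408 to 72185 CPM in Alb-cre livers. Most of that sum was Alb, which was not called (-0.33 ± 0.20, adjusted p = 0.271 by edgeR). In bulk tissue fewer cells of a type and less RNA per cell cannot be told apart. Of 15 acute phase genes 13 were higher, and of 12 clock genes 2 were higher and 3 lower. Of the other cell type lists, stellate cell markers summed to 159 to 273 CPM in controls and 111 to 241 CPM in Alb-cre livers with 0 of 9 called, Kupffer cell markers to 95 to 185 and 138 to 181 CPM with 1 of 7 higher, and endothelial markers to 75.3 to 115 and 63.5 to 168 CPM with 2 of 6 higher. Lymphocyte markers summed to 4.13 to 6.28 CPM in controls and 1.26 to 2.55 CPM in Alb-cre livers, with 2 of 3 tested markers lower. Cholangiocyte markers summed to 48.6 to 77.2 CPM in controls and 26.8 to 78.3 CPM in Alb-cre livers with 0 of 5 called. Their mean log2 level minus the control mean was 1.42 in Alb-cre 4 and -1.67 to 0.27 in every other liver. The part of these shifts in the results below was not tested, and values set beside them there are descriptions.

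Promoter letters were searched for each gene, since Igfbp1 and Irs2 are textbook targets of insulin-controlled FOXO factors. RefSeq promoters of build GRCm38.p6, from 250 bases before to 50 after each listed start, were found for 9 of the 10 genes. The letters searched on both strands were GTAAACA (a FOXO element, held by 3.65% of all 32851 promoters of the table), CAAAACA (the core of the insulin response sequence, 6.28%), TTCNNNGAA (a STAT element, 8.3%) and CACGTG (an E-box, 7.15%). CAAAACA or its reverse complement TGTTTTG was found in Igfbp1 (bases -108 to -102 from the start), in Irs2 (-37 to -31) and in Irs1 (-111 to -105 and -32 to -26). None of the 9 genes held GTAAACA in these windows. Igfbp2, the gene with the largest change of the 10, held an E-box at -142 to -137, as did Irs2 at -44 to -39 and Irs1 at -115 to -110. Akt2 held a STAT element at -160 to -152 of the first of its 4 listed starts. A match of letters is a description and not a bound site. The 250 bases before the first listed start are shown for these 5 genes, 5′ to 3′ on the gene's strand, with the matched letters in capitals. In Irs1 the E-box and the first TGTTTTG share 2 letters and are written as 1 run of capitals.
Igfbp1 (chr11:7197537-7197786, plus strand): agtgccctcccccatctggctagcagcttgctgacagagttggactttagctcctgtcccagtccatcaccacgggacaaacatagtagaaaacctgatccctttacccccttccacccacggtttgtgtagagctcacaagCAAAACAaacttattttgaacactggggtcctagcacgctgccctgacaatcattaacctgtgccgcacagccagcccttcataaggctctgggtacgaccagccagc
Irs2 (chr8:11008930-11009179, minus strand): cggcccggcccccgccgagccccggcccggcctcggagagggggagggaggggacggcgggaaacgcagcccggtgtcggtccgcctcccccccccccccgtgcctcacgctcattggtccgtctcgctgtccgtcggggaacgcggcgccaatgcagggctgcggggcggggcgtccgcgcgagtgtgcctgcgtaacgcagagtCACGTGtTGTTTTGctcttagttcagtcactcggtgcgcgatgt
Irs1 (chr1:82291440-82291689, minus strand): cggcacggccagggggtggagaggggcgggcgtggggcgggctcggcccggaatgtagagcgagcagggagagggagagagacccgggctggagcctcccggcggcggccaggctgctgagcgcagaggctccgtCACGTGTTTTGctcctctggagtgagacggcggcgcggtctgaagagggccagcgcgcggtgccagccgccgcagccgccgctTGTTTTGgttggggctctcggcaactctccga
Igfbp2 (chr1:72824230-72824479, plus strand): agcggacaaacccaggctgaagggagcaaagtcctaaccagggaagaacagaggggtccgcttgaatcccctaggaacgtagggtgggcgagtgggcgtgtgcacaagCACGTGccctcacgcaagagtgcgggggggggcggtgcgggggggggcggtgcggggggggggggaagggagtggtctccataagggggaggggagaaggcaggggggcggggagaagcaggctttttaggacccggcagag
Akt2 (chr7:27591302-27591551, plus strand): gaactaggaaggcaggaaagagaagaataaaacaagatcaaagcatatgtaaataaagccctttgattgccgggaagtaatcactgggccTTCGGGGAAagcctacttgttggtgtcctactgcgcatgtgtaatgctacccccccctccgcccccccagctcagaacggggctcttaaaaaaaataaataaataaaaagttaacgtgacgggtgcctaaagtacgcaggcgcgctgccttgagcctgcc

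Igfbp2 RNA was lower and Akt2 RNA was higher in Alb-cre livers, and the other 8 genes did not pass the test. Levels are CPM scaled by TMM (trimmed mean of M-values, which corrects for RNA composition), and differences are log2 fold changes of Alb-cre over control ± SE. They come from the quasi-likelihood test of edgeR, with Benjamini-Hochberg adjustment across the 14004 tested genes and calls at an adjusted p under 0.05. Of all tested genes 9.25% were called higher and 9.07% lower, and 18.3% were called in either direction. The 2 calls among 10 genes (20%) are close to that share, and the 10 genes are therefore described one by one. Their median log2 fold change was 0.18, and that of all tested genes was 0.01.

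**Figure D1:**
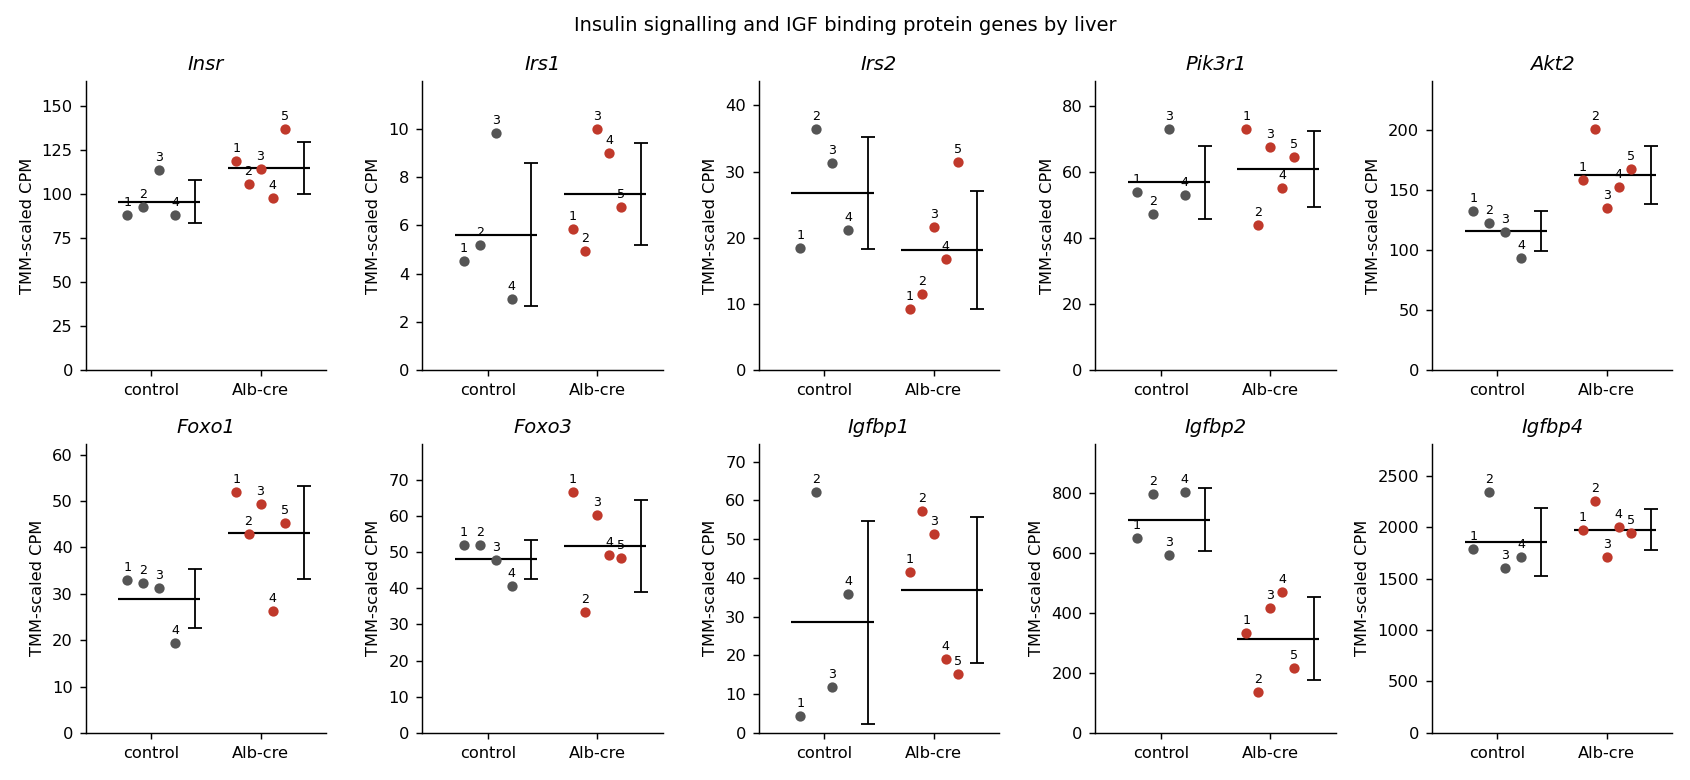
TMM-scaled CPM of each of the 10 genes (vertical axes from 0, each gene on its own scale) in 4 control livers (grey) and 5 Alb-cre livers (red), numbered by replicate, with the group mean as a line and the SD as a bar. Igfbp2 and Akt2 are the 2 genes whose groups do not overlap, a pattern that 18.5% of all tested genes showed. Igfbp1 spans 4.26 to 62.2 CPM among controls alone.

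The insulin receptor gene Insr (ENSMUSG00000005534.11) was read at 88.3, 92.5, 114 and 88.2 CPM in controls 1 to 4 and at 119, 106, 114, 97.8 and 137 CPM in Alb-cre livers 1 to 5. The groups overlapped, with 3 of 5 Alb-cre livers above the highest control. The difference was 0.26 ± 0.13 (95% interval -0.02 to 0.54, adjusted p = 0.171 by edgeR), so a rise of up to 0.54 lay within its interval. The sister receptor gene Igf1r was scarce in both groups, at 2.21 ± 0.491 CPM (SD, n = 4) in controls and 2.59 ± 1.04 CPM (SD, n = 5) in Alb-cre livers (0.24 ± 0.31, adjusted p = 0.621 by edgeR).

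The 2 receptor substrate genes did not pass the test, and their fitted differences had opposite signs. Irs1 (ENSMUSG00000055980.3) measured 4.5, 5.16, 9.82 and 2.93 CPM in controls and 5.86, 4.93, 9.98, 8.99 and 6.78 CPM in Alb-cre livers. Control 3 stood nearly as high as the highest Alb-cre liver, and the difference was 0.39 ± 0.32 (95% interval -0.31 to 1.09, adjusted p = 0.409 by edgeR). Irs2 (ENSMUSG00000038894.8), the substrate whose RNA FOXO factors are known to raise on fasting, measured 18.4, 36.4, 31.4 and 21.2 CPM in controls. In Alb-cre livers Irs2 measured 9.24, 11.5, 21.6, 16.8 and 31.5 CPM, so that 3 of 5 lay below every control and Alb-cre 3 and 5 lay within the control range. Its difference was -0.56 ± 0.32 (95% interval -1.26 to 0.13, adjusted p = 0.231 by edgeR). The ratio of Irs2 to Irs1 CPM within a liver was 3.19 to 7.22 in controls and 1.58 to 4.65 in Alb-cre livers, with 4 of 5 Alb-cre livers at 2.34 or less and below every control. This ratio compares a gene pair between livers and not the abundance of 2 transcripts, which differ in length.

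Pik3r1 (ENSMUSG00000041417.16), which encodes the p85alpha regulatory subunit of PI3K, measured 54.0, 47.3, 72.8 and 52.9 CPM in controls and 72.9, 44.0, 67.6, 55 and 64.5 CPM in Alb-cre livers. The ranges lay almost on top of each other (0.10 ± 0.17, 95% interval -0.26 to 0.46, adjusted p = 0.704 by edgeR). Akt2 (ENSMUSG00000004056.16), the AKT gene most tied to insulin action in liver, measured 133, 123, 115 and 93.3 CPM in controls and 159, 201, 135, 153 and 167 CPM in Alb-cre livers. All 5 Alb-cre livers stood above all 4 controls, a pattern that 18.5% of all tested genes showed in one direction or the other, and the nearest pair was 133 and 135 CPM. Akt2 rose by 0.49 ± 0.14 (95% interval 0.18 to 0.80, 1.40-fold, adjusted p = 0.0358 by edgeR). The call was lost without control 2, 3 or 4 or Alb-cre 1, 2 or 5 (0.40 to 0.52, adjusted p = 0.0546 to 0.096 by edgeR). Akt2 shares sequence with a processed pseudogene, Akt2-ps, that had 83 to 284 counts per liver against 1561 to 3020 for Akt2. With the counts of both summed, a setting chosen after the data were seen, the difference was 0.50 ± 0.15 (adjusted p = 0.0377 by edgeR).

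The 2 FOXO genes did not pass the test. Foxo1 (ENSMUSG00000044167.7), the main FOXO factor of hepatic gluconeogenesis, measured 32.9, 32.3, 31.2 and 19.4 CPM in controls and 52.0, 43.0, 49.4, 26.3 and 45.3 CPM in Alb-cre livers. In 4 of 5 Alb-cre livers Foxo1 stood above every control, and Alb-cre 4 lay among the controls (0.58 ± 0.21, 95% interval 0.13 to 1.03, adjusted p = 0.0695 by edgeR). DESeq2 called it higher (0.58 ± 0.22, adjusted p = 0.041), and so did edgeR without Alb-cre 4 (0.72 ± 0.17, adjusted p = 0.019). Limma-voom did not call Foxo1 (0.57 ± 0.22, adjusted p = 0.082). Of 9 edgeR fits that left out 1 liver, 8 did not call it, among them the fit without control 4 (0.43 ± 0.19, adjusted p = 0.177). Foxo3 (ENSMUSG00000048756.12) measured 51.9, 52.0, 47.6 and 40.5 CPM in controls and 66.6, 33.4, 60.2, 49.2 and 48.3 CPM in Alb-cre livers. The Alb-cre livers held both the lowest and the highest value, and the difference was 0.10 ± 0.18 (95% interval -0.28 to 0.49, adjusted p = 0.716 by edgeR). Foxo1 exceeded Foxo3 in CPM only in Alb-cre 2 (ratio 1.29), and the ratio was 0.478 to 0.655 in controls and 0.534 to 0.938 in the other Alb-cre livers.

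**Figure D2:**
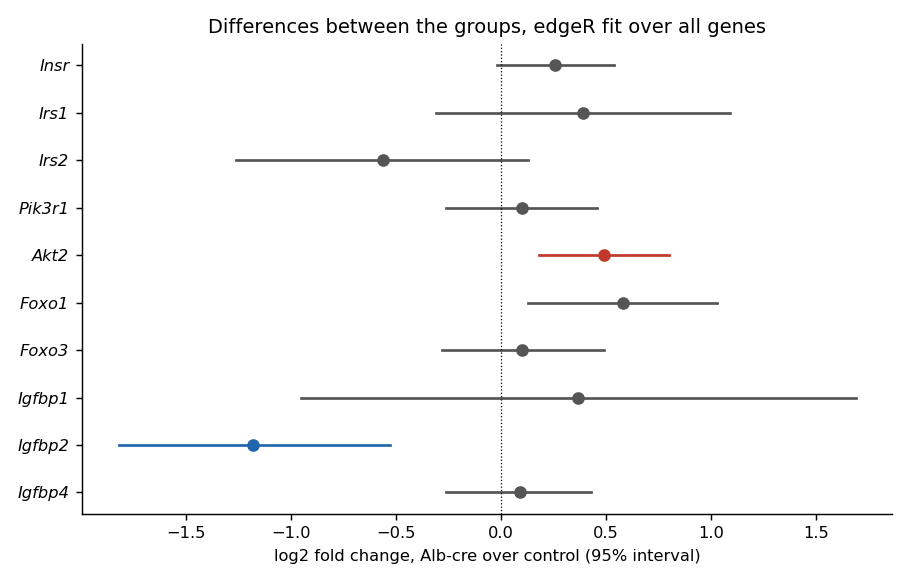
Log2 fold change of Alb-cre over control for the 10 genes (points) with the 95% interval of the edgeR fit (lines), in blue for the called fall of Igfbp2, in red for the called rise of Akt2 and in grey otherwise. The intervals of Igfbp1 and Irs2 are wide, and the interval of Foxo1 excludes 0 although its adjusted p of 0.0695 missed the threshold.

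The IGF binding protein genes differed from one another in level, in spread and in their change. Igfbp1 (ENSMUSG00000020429.8), a binding protein whose hepatic RNA insulin suppresses, was the least steady of the 10 genes. It measured 4.26, 62.2, 11.9 and 35.7 CPM in controls, a 14.6-fold range within 1 genotype, and 41.4, 57.2, 51.3, 19.1 and 15.2 CPM in Alb-cre livers. No Alb-cre liver stood outside the control range, and the interval of the difference was wide (0.37 ± 0.61, 95% interval -0.95 to 1.69, adjusted p = 0.701 by edgeR). Without control 2, its highest control, the difference was 1.09, and without control 1, its lowest, it was 0.01.

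Igfbp2 (ENSMUSG00000039323.19), a circulating binding protein made by hepatocytes, measured 649, 796, 592 and 802 CPM in controls and 333, 136, 415, 470.3 and 215 CPM in Alb-cre livers. All 5 Alb-cre livers stood below all 4 controls, with the nearest pair at 592 and 470.3 CPM. Of all tested genes 18.5% showed no overlap of the groups in one direction or the other. Igfbp2 fell by 1.18 ± 0.30 on the log2 scale (95% interval -1.82 to -0.53, adjusted p = 0.0208 by edgeR), to 44.2% of the control level. The 9 hepatocyte markers had a median log2 fold change of -0.33, with 3 of them above 0. They ran from -1.14 ± 0.20 for Ttr (adjusted p = 0.00553 by edgeR), close to the fall of Igfbp2, to 0.43 ± 0.31 for Cps1. The call was lost without control 2 (-1.12 ± 0.33, adjusted p = 0.0595 by edgeR) and without control 4 (-1.11 ± 0.33, adjusted p = 0.0624 by edgeR), and without the lowest liver, Alb-cre 2, the difference was -0.99 ± 0.22 (adjusted p = 0.015 by edgeR). Igfbp4 (ENSMUSG00000017493.13), which mostly holds IGF back from its receptor, measured 1786, 2343, 1599 and 1708 CPM in controls and 1977, 2256, 1706, 2005 and 1943 CPM in Alb-cre livers. It was the steadiest of the 3 in Alb-cre livers, and its difference was 0.09 ± 0.16 (95% interval -0.26 to 0.43, adjusted p = 0.723 by edgeR). The ratio of Igfbp2 to Igfbp4 CPM was 0.340 to 0.470 in controls and 0.0603 to 0.243 in Alb-cre livers, without overlap.

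Divided by exon length, Igfbp4 and Igfbp2 were the most abundant of the 10 transcripts in controls, at 421 ± 75.1 and 384 ± 57.2 CPM per kb (SD, n = 4), and their ranges overlapped. In Alb-cre livers they stood at 448 ± 44.3 and 170.0 ± 74.8 CPM per kb (SD, n = 5), without overlap. Igfbp1 (18.7 ± 17.1 CPM per kb) and Akt2 (16.3 ± 2.37) came next in controls and overlapped each other. Insr (6.96 ± 0.884), Foxo3 (6.34 ± 0.713), Pik3r1 (5.63 ± 1.10), Irs2 (4.25 ± 1.34) and Foxo1 (3.34 ± 0.743) followed in controls, each overlapping its neighbour in that order. Irs1 was lowest in controls, at 0.613 ± 0.324 CPM per kb, below every other member in every control liver. In Alb-cre livers the order was the same except that Foxo1 (4.99 ± 1.16 CPM per kb) preceded Irs2 (2.87 ± 1.40), and these 2 ranges overlapped.

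Igfbp3, Igfbp5, Igfbp6 and Igfbp7 complete the IGF binding protein genes read here. Of the summed CPM per kb of all 7 genes, Igfbp4 made up 42.9 to 50.4% in controls and 55.3 to 77.3% in Alb-cre livers. Igfbp2 made up 39.8 to 48.2% in controls and 11.1 to 32.5% in Alb-cre livers. Neither share overlapped between the groups, while the level of Igfbp4 did. Shares of 1 sum depend on one another, so the higher Igfbp4 share is not a result separate from the lower Igfbp2 share. The summed level of the 7 genes was 753 to 1084 CPM per kb in controls and 594 to 782 CPM per kb in Alb-cre livers. Igfbp3, the main serum carrier of IGFs, measured 19.4 ± 3.21 CPM (SD, n = 4) in controls and 13.3 ± 5.34 CPM (SD, n = 5) in Alb-cre livers (-0.54 ± 0.29, adjusted p = 0.205 by edgeR). Igfbp6 was called higher on few counts (2, 12, 3 and 2 in controls and 49, 38, 15, 49 and 2 in Alb-cre livers), with Alb-cre 5 at the level of the controls (2.59 ± 0.79, adjusted p = 0.0402 by edgeR). Limma-voom did not call it, and edgeR did not without control 1, 3 or 4 or Alb-cre 1, 2 or 4.

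**Figure D3:**
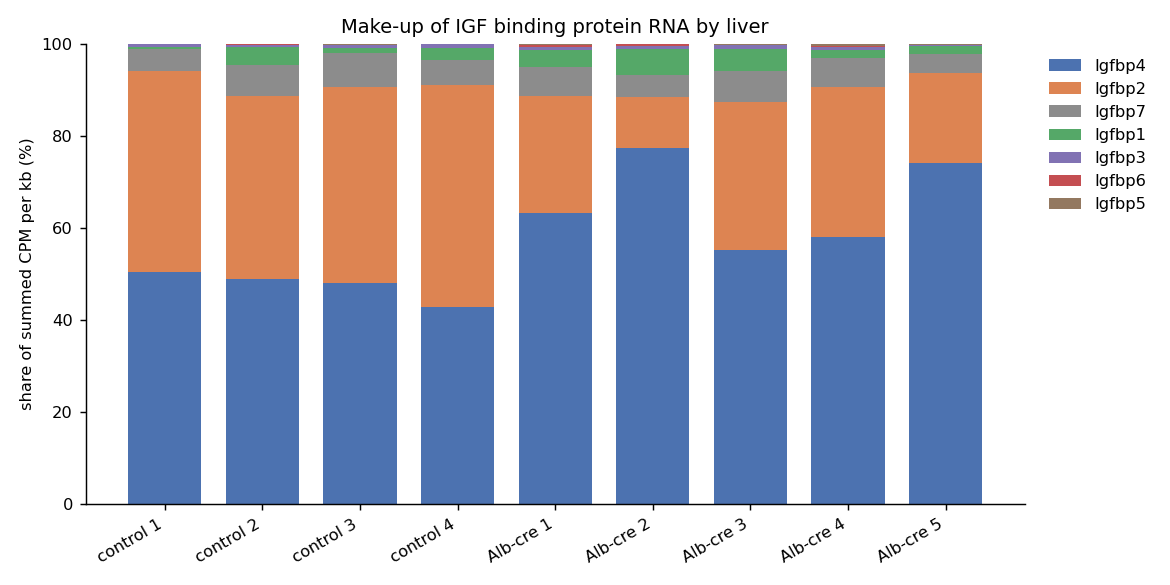
Share of each IGF binding protein gene in the summed CPM per kb of the 7 genes (vertical axis, percent) for each of the 9 livers (bars). The Igfbp2 segment is 39.8 to 48.2% in controls and 11.1 to 32.5% in Alb-cre livers.

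The Alb-cre livers differed from one another in their acute phase genes, and the values of Igfbp2 and Akt2 are therefore given beside them. The mean of 15 acute phase genes stood above the control mean on the log2 scale by 4.76 in Alb-cre 2, 3.38 in 5, 2.68 in 1, 1.85 in 4 and 0.24 in 3, against -0.33 to 0.39 in controls. Akt2 CPM followed the same order of the 5 Alb-cre livers, as did 2.75% of all tested genes and 9.26% of those called higher. Igfbp2 was lowest in Alb-cre 2, then 5, then 1, the reverse of the acute phase order, but Alb-cre 3 and 4 were exchanged. In Alb-cre 3 the mean of the 15 genes was within the control range, but single genes were not. Saa1 (88.7 CPM against at most 74.7 in controls), Stat3 (133 against 96.9), Lbp (86.6 against 80.4) and Crp (265.7 against 264.8) stood above every control there, and Orm2, Apcs and Fgg stood below every control. In the same liver Igfbp2 was 415 CPM and below every control, and Akt2 was 135 CPM and above every control, the highest of which was 133 CPM. Irs2 did not follow this order, since its lowest value was in Alb-cre 1 and its highest in 5. Without Alb-cre 3, Igfbp2 differed by -1.29 ± 0.31 (adjusted p = 0.0173 by edgeR) and Akt2 by 0.56 ± 0.14 (adjusted p = 0.022 by edgeR).

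**Figure D4:**
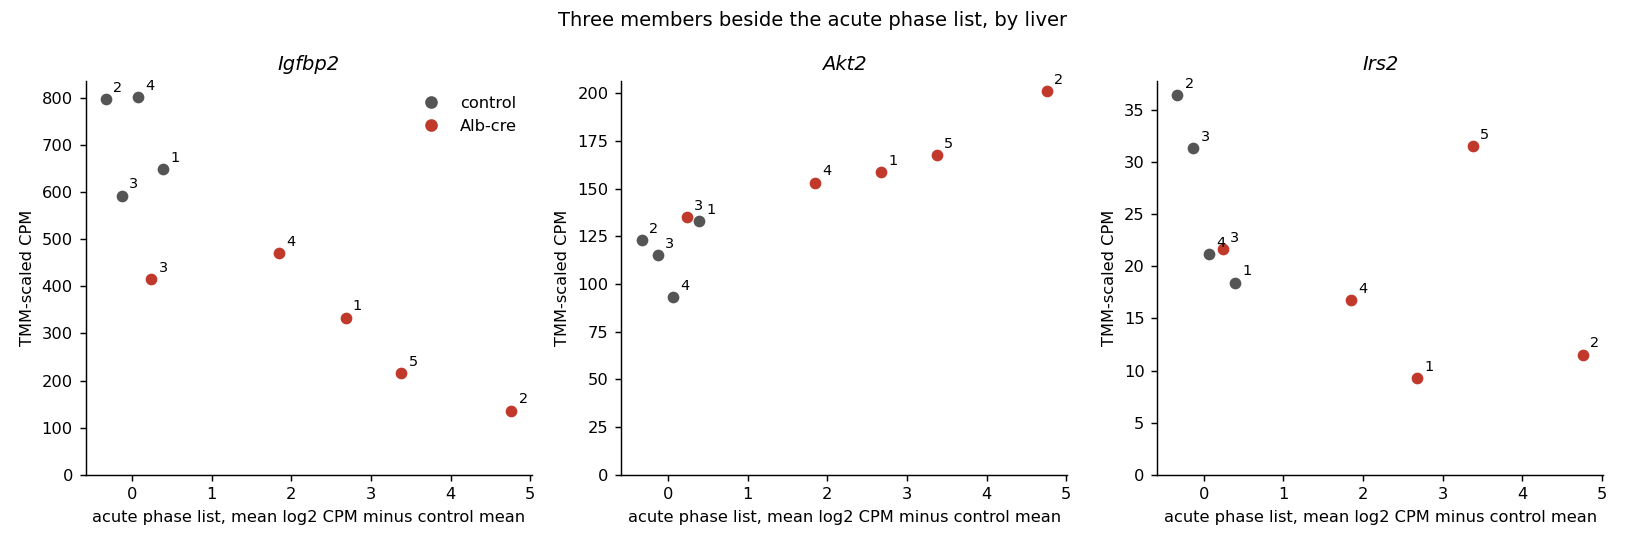
TMM-scaled CPM of Igfbp2, Akt2 and Irs2 (vertical axes) against the mean log2 CPM of 15 acute phase genes minus its control mean (horizontal axes) in 4 control (grey) and 5 Alb-cre livers (red), numbered by replicate. Alb-cre 3 lies with the controls on the horizontal axis, at a list mean of 0.24, though single genes of the list lay above or below every control there. The Igfbp2 level of Alb-cre 3, 415 CPM, lies below every control. The part of the acute phase genes in these levels was not tested.

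Clock genes also differed between the groups. Dbp, a clock-controlled transcription factor gene, fell from 234 ± 61.2 CPM (SD, n = 4) to 58.7 ± 22 CPM (SD, n = 5; -1.99 ± 0.27, adjusted p = 0.0025 by edgeR), and Nr1d1, a clock repressor gene, fell by 1.89 ± 0.21 (adjusted p = 0.000951 by edgeR). Their part in the levels of the 10 genes was not tested.

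The profiles most like that of Igfbp2 over the 9 livers, by the root mean square difference of mean-centred log2 CPM among tested genes averaging a log2 CPM of 1 or more, were those of Mmp2 (0.217), Fabp1 (0.224), Osbp2 (0.224), Tstd1 (0.242) and Tgfbr3l (0.253). Mmp2 encodes a gelatinase and Fabp1 the liver fatty acid binding protein. Among those most like Akt2 were Tmem167 (0.0796), Wwc1 (0.0817), Slc38a10 (0.0843) and Arf1 (0.0862). Arf1 encodes a GTPase of Golgi transport.

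Around these 10 genes, a list of 113 other pathway genes was read, of which 106 were found in the table and 102 were tested. Of these, 12 were higher and 9 lower, 20.6% against 18.3% of all tested genes, with a median log2 fold change of 0.06 beside 0.01 for all tested genes. The groups did not overlap in CPM for 14 of the 102 genes and for 18.5% of all tested genes.

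Among 11 receptor and adaptor genes 2 were higher and 1 lower (median 0.22). Grb14, an adaptor that blocks the insulin receptor kinase, fell from 61.5 ± 3.20 CPM (SD, n = 4) to 43.3 ± 4.87 CPM (SD, n = 5), without overlap of the groups (-0.51 ± 0.11, adjusted p = 0.0121 by edgeR). The adaptor genes Shc1 (0.47 ± 0.14, adjusted p = 0.0334 by edgeR) and Grb2 (0.42 ± 0.13, adjusted p = 0.0387 by edgeR), which link receptors to RAS, rose, and each call was lost in 7 of 9 fits that left out 1 liver. That of Shc1 held without control 1 or Alb-cre 3, and that of Grb2 without Alb-cre 3 or 4.

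Among 16 genes of PI3K, AKT and neighbouring kinases 5 were higher and 1 lower (median 0.27). Akt1, the other abundant AKT gene, rose from 69.5 ± 5.19 CPM (SD, n = 4) to 106 ± 22.3 CPM (SD, n = 5; 0.61 ± 0.15, adjusted p = 0.0213 by edgeR). The Akt1 call was lost without control 4 or Alb-cre 1 (adjusted p up to 0.0589 by edgeR). Pik3r3, a regulatory subunit gene of low level, rose from 1.59 ± 0.208 to 3.72 ± 1.04 CPM (1.22 ± 0.26, adjusted p = 0.0106 by edgeR). Prkcz, an atypical protein kinase C gene, rose (0.46 ± 0.11, adjusted p = 0.0191 by edgeR), but not without Alb-cre 1 (adjusted p = 0.051). Sgk2, a kinase gene of the AKT-related SGK family, fell from 67.8 ± 6.16 CPM (SD, n = 4) to 27.1 ± 5.62 CPM (SD, n = 5; -1.32 ± 0.15, adjusted p = 0.000951 by edgeR). That fall had the smallest adjusted p of the 102 genes, and the call held in all 9 fits that left out 1 liver.

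Among 18 genes of proteins that restrain insulin signals 2 were higher and 2 lower (median 0.05). Ptpn1, the phosphatase gene PTP1B that dephosphorylates the insulin receptor, measured 33.2, 33.6, 27.2 and 34.7 CPM in controls and 74.0, 128, 43.3, 66.3 and 112 CPM in Alb-cre livers. Every Alb-cre liver stood above every control, in the same order as their acute phase means, and Ptpn1 rose by 1.40 ± 0.27 (2.63-fold, adjusted p = 0.00726 by edgeR). Grb2 and Socs3 followed that order of the Alb-cre livers too. Foxo4 and some other pathway genes that were not called ran in the reverse order. Of all tested genes 2.75% followed the order and 2.06% its reverse. Phlpp2, a phosphatase gene that acts on AKT, rose from 4.44 ± 0.874 to 7.76 ± 0.612 CPM (0.80 ± 0.17, adjusted p = 0.0111 by edgeR). Inpp5k, a phosphoinositide phosphatase gene, fell (-0.52 ± 0.11, adjusted p = 0.0126 by edgeR), and so did Trib3, a pseudokinase gene reported to bind AKT (-1.99 ± 0.27, adjusted p = 0.0025 by edgeR). Socs3, a cytokine-induced inhibitor gene that also acts on IRS proteins, was 106 CPM in Alb-cre 2 and 7.15 CPM in Alb-cre 3, against 15.4 to 36.2 CPM in controls (0.52 ± 0.57, adjusted p = 0.551 by edgeR).

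Of 15 genes of the mTOR arm 1 was higher and 1 lower (median -0.01). Tsc1, a brake on mTORC1, fell from 36.0 ± 2.13 CPM (SD, n = 4) to 25.7 ± 1.67 CPM (SD, n = 5; -0.48 ± 0.10, adjusted p = 0.00927 by edgeR). Mlst8, a subunit of both mTOR complexes, rose (0.67 ± 0.18, adjusted p = 0.0253 by edgeR), a call lost without control 1 or 4 or Alb-cre 1 or 5. Of 8 tested genes of the IGF system beyond the 3 members, Igfbp6 was higher and Igf1 lower (median -0.36). Igf1, the growth factor that these proteins bind, fell from 474 ± 64.9 CPM (SD, n = 4) to 350.0 ± 26.5 CPM (SD, n = 5; -0.44 ± 0.13, adjusted p = 0.0344 by edgeR), and this call was lost without control 2 or 4 or Alb-cre 1, 3, 4 or 5. Foxo4, the third FOXO gene tested, differed by 0.04 ± 0.15 (adjusted p = 0.877 by edgeR).

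The genes that FOXO factors or insulin are known to raise were read last. Of 21 genes raised by FOXO factors 1 was higher and 3 were lower (median -0.08). Txnip (-1.91 ± 0.50, adjusted p = 0.0232 by edgeR), a brake on glucose uptake, the apolipoprotein gene Apoc3 (-0.63 ± 0.19, adjusted p = 0.0366 by edgeR) and the stress gene Gadd45a (-1.40 ± 0.43, adjusted p = 0.043 by edgeR) fell. The cell cycle inhibitor gene Cdkn1a rose (1.25 ± 0.37, adjusted p = 0.0348 by edgeR). The call of Txnip was lost without control 2 or 4 or Alb-cre 1, that of Apoc3 without control 2 or 4 or Alb-cre 1, 3 or 5, that of Cdkn1a without any 1 control or Alb-cre 1 or 2, and that of Gadd45a in every such fit but the one without Alb-cre 5. By DESeq2 2 were higher and 4 lower, and by limma-voom 0 were higher and 3 lower. At an unadjusted p under 0.05 in the main edgeR fit, 2 were higher and 5 lower. Without single livers the numbers called ran from 0 to 1 higher and from 0 to 2 lower. The gluconeogenic gene Pck1 measured 2910.3 ± 1184 CPM (SD, n = 4) in controls and 3365 ± 836 CPM (SD, n = 5) in Alb-cre livers (0.21 ± 0.26, adjusted p = 0.6 by edgeR). G6pc, which encodes glucose-6-phosphatase, measured 112, 932, 252 and 397 CPM in controls and 303, 204, 1187, 417 and 200.4 CPM in Alb-cre livers (0.13 ± 0.61, adjusted p = 0.903 by edgeR). Among controls G6pc and Igfbp1 had the same order, highest in control 2 and lowest in control 1, while among Alb-cre livers G6pc was highest in 3 and Igfbp1 in 2.

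Of 12 genes that insulin is known to raise in hepatocytes 0 were called by edgeR, with a median log2 fold change of 0.05. At an unadjusted p under 0.05, 2 were higher and 0 lower, and DESeq2 and limma-voom called 0. The smallest p in the list was that of the elongase gene Elovl6 (0.48 ± 0.21, adjusted p = 0.12 by edgeR), which was called higher without Alb-cre 2.

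**Figure D5:**
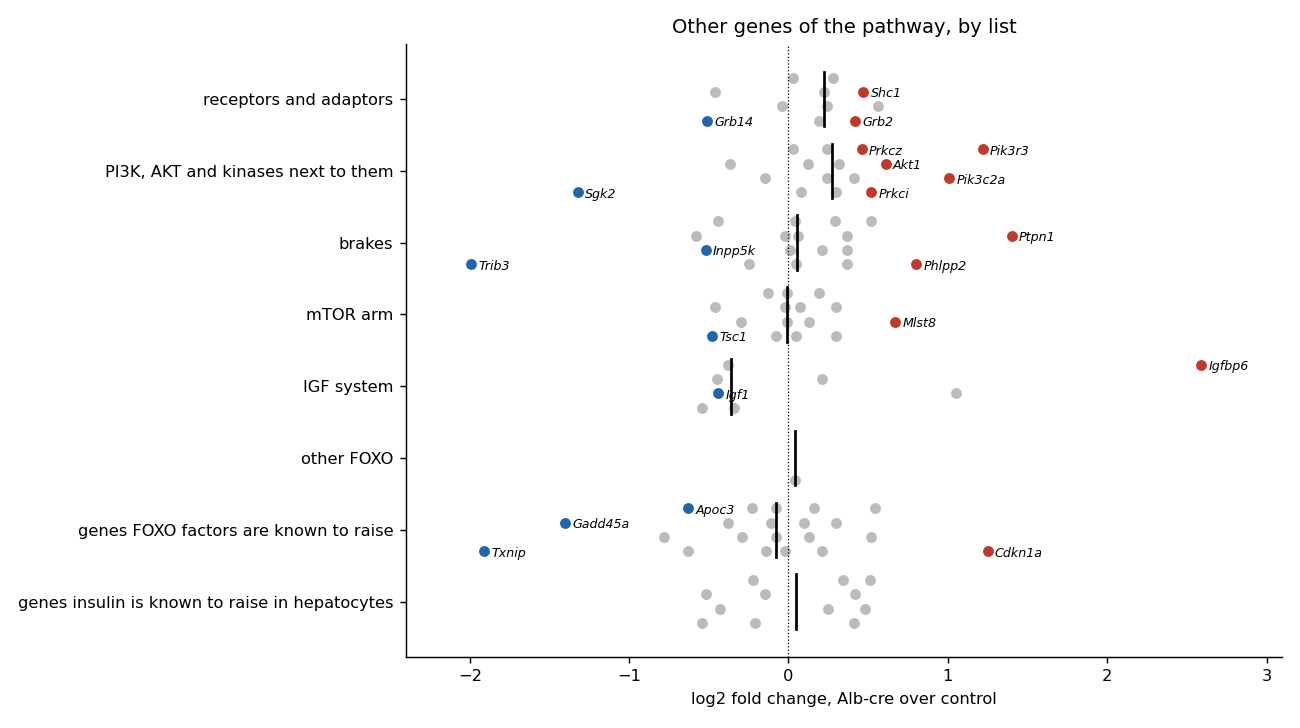
Log2 fold change of Alb-cre over control (horizontal axis) of the 102 tested pathway genes other than the 10 members, by list (rows), with called genes in red (higher) or blue (lower), other genes in grey and the median of each list as a black line. Medians lie between -0.36 and 0.27, and the PI3K and AKT list holds 5 of the 12 higher genes.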

How the data were processed

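Per the labels' protocols, strand-specific libraries were made from liver RNA after depletion of ribosomal RNA and read in pairs. The tools fastp 0.23.2 and HISAT2 2.1.0 and the genome build GRCm39 are named in the submitters' processing notes. How genes were counted, with which strand setting and annotation, was not given in the sources used here. Values deposited by the authors are whole-number counts per gene, not normalized. Titles gave the groups and replicate numbers, and columns were matched to samples by their descriptions.

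Genes that passed filterByExpr (14004) were TMM-scaled and compared between the groups in edgeR 4.0.16 (glmQLFit, glmQLFTest; R 4.3.3). The code was tested on simulated data. SE is the log2 fold change divided by the square root of F. Log2 CPM used a prior count of 2. Lengths are merged exons of a GRCm38 annotation of another build than the counts. In it, 2 genes of the table on the opposite strand (Gm9747 at Irs1, Gm20402 at Foxo1) overlap exons of the 10 genes, and both had 0 counts. Another, 9530052E02Rik, shares 162 exon bases with Irs2 on the opposite strand and is not among the counted genes. Every pair of livers within a group differed by more than sampling noise, with a chi-square of 15.0 or more per gene. The members, lists, tests and promoter letters were chosen with earlier results of these data known. The genes named are the 10 members, up to 3 called genes per direction of each list, taken by adjusted p (the smallest p where 0 were called), G6pc, Pck1, Igf1, Igfbp3, Igf1r and Socs3, and the 5 genes most like each called member, of which some are not reported here. Dbp, Nr1d1, Akt2-ps and the single hepatocyte and acute phase genes were chosen after their values were seen. Alternatives were RLE factors, library totals, DESeq2 1.42.0, limma-voom (limma 3.58.1), no filter, a filter of CPM of at least 1 in 4 livers, 2 replicate blocks, removal of the 20 most abundant and the mitochondrial genes, and each liver left out.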

Additional observations from a re-analysis of the deposited data

Results flagged for a closer look

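Foxo1 in control 4 (19.4 CPM) lay far below the other 3 controls, which held 31.2 to 32.9 CPM. Foxo1 in Alb-cre 4 (26.3 CPM) likewise lay far below the other 4 Alb-cre livers, which held 43.0 to 52.0 CPM. In both cases the gap to the nearest liver was a large part of the group's whole range on the log2 scale (0.900 and 0.722). Chance flags about 1 in 20 groups, and 20 groups were looked at, 10 genes in 2 groups each. Control 4 also held the lowest value of Irs1, Akt2 and Foxo3 among controls. Its Insr value was lowest too, but by little (88.2 CPM against 88.3 CPM in control 1). The lowest control was control 1 for Irs2 and Igfbp1, control 2 for Pik3r1 and control 3 for Igfbp2 and Igfbp4. Igfbp2 was highest in control 4.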

How the results depend on the processing

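Among all genes, 281 were higher and 248 lower with the description number as a replicate block, 819 were lower with the title number as a block, and leaving out 1 liver gave 567 to 1339 higher and 625 to 1184 lower. DESeq2 called more of the 14004 genes, 1731 higher and 1653 lower, against 1296 and 1270 in the main edgeR fit. Among the 10 members, 2 were higher by DESeq2 (Akt2 and Foxo1). With the description block 0 members were higher and 0 lower, and without 1 liver 0 to 2 were higher and 0 to 1 lower. In the pathway list, 2 were higher and 4 lower with the description block, and 5 to 12 higher and 5 to 9 lower without 1 liver. Igfbp2 kept its direction in every setting run (-1.37 to -0.99) and so did Akt2 (0.40 to 0.57). Signs turned for 4 genes that were not called. Leaving out 1 liver gave 0.00 to 0.22 for Foxo3, -0.58 to 0.87 for G6pc, -0.18 to 0.80 for Socs3 and -0.09 to 0.16 for Foxo4, and Socs3 was -0.24 with the title block and -0.18 with the description block. The cause was not tested. The samples share only a number. By description, only the numbers 1, 5 and 6 occur in both groups. Control 2 and Alb-cre 2 and 3 therefore added nothing to the fitted difference with the description block. Deviations of same-numbered livers correlated across genes at -0.015 to 0.134 by title and -0.114 to 0.049 by description, and 3 of 8 livers correlated best with their own title number. With the title block, Irs2 was lower (-0.87 ± 0.21, adjusted p = 0.0393 by edgeR) and Foxo1 higher (0.54 ± 0.11, adjusted p = 0.0235), and Akt2 (adjusted p = 0.0551) and Igfbp2 (adjusted p = 0.051) were not called. No control has the title number of Alb-cre 5, so that liver added nothing to the fitted difference with the title block. Without Alb-cre 5 and without a block, Irs2 differed by -0.85 ± 0.28 (adjusted p = 0.0661 by edgeR). At this depth the precision of Irs1, with 49 to 173 counts per liver, and of Igfbp6 is limited.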
